A study of Mus musculus with 48 samples.

Results

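The genes described here are the identity genes of medium spiny neurons, the projection neurons that make up most of the striatum. They are a list of 34 symbols covering receptors, neuropeptides, cAMP signalling proteins, transcription factors, membrane and cytoskeletal proteins and 3 other striatum-enriched genes. Each symbol was matched to the gene row with most counts under that name in the authors' deposited table, and 33 of 34 symbols had a row among 47069 gene rows. The receptor gene Gpr52 was not analysed here. The libraries were bulk RNA-seq from the striatum, cortex and cerebellum of mice with a deletion of chromosome 7 band 7qF3, the mouse counterpart of the human 16p11.2 deletion, and of wild-type mice. Each of 16 animals (8 with the deletion, 8 wild type) gave 1 library per region, so there were 48 libraries in 6 groups of 8, with 4 males and 4 females in each. The strain was C57BL/6N:129Sv throughout. In place of an age the labels give a date, which was the same for all males and another for all females, so effects of sex and of that date cannot be told apart. Animals are named D (deletion) or W (wild type) with the number in the labels.

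Medium spiny neurons release GABA and fall into a pair of classes. Direct-pathway neurons carry the dopamine receptor Drd1 and the peptides substance P (Tac1) and dynorphin (Pdyn), while indirect-pathway neurons carry the dopamine receptor Drd2, the adenosine receptor Adora2a and enkephalin (Penk). Both classes carry the olfactory-type G protein alpha subunit Gnal, the gamma subunit Gng7 and adenylyl cyclase Adcy5, which serve cAMP signalling. Through protein kinase A, cAMP acts on Ppp1r1b (DARPP-32), an inhibitor of protein phosphatase 1. The transcription factors Bcl11b, Isl1, Ebf1, Rarb, Sp9, Six3 and Meis2 act in the development or upkeep of these neurons.

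The cAMP pathway that these genes serve acts on promoters through the cAMP response element, so the 250 bases before each RefSeq start (GRCm38.p6) were searched for its half-site, TGACG, on both strands (as CGTCA on the other), and for the full palindrome TGACGTCA, which holds a half-site on each strand. Of the members, 24 had a promoter entry. A half-site was found in 5 of these 24 (20.8%), beside 17.8% of all 32851 promoter windows of the same length, and the full element in 1, Gpr6, beside 1.55% of all windows. The windows of Gpr6, Tac1 and Isl1 are shown as those with more than 1 half-site, in capitals, and that of Drd1, the most direct label of the direct pathway, as 1 without.
Gpr6 (chr10:41072291-41072540, minus strand): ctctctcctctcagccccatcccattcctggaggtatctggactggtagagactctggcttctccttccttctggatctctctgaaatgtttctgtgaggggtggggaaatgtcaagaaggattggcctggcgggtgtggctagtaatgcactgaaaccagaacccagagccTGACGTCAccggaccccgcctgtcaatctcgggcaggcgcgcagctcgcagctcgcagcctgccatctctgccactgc
Tac1 (chr6:7554811-7555060, plus strand): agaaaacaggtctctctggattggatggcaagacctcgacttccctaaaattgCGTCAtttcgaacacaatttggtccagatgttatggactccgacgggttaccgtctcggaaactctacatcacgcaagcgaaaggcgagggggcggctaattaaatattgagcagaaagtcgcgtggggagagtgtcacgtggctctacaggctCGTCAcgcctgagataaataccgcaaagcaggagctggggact
Isl1 (chr13:116309689-116309938, minus strand): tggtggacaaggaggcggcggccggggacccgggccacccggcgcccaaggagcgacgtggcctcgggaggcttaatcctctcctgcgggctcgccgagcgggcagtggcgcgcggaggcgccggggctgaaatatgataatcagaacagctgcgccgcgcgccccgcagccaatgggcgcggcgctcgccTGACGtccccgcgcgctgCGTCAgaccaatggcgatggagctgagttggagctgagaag
Drd1 (chr13:54055659-54055908, minus strand): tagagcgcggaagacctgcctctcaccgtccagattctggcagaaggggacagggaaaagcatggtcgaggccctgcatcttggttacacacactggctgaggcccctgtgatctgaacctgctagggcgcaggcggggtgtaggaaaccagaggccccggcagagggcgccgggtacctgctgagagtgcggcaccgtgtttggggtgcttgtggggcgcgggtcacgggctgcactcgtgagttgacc
Gpr6, Drd1 and, less closely, Tac1 varied with the other members among striatal libraries, and Isl1 did not. The first component described further on held 92.7% of the variance of Gpr6, 97.0% of Drd1, 52.9% of Tac1 and 1.12% of Isl1. Both patterns are found among the windows with half-sites. A match is a description of the letters only.

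The libraries held 29244745 to 60751792 gene counts (median 32232112). Of the genes called lower in deletion libraries, 20 in striatum, 20 in cortex and 21 in cerebellum, all lay on chromosome 7 between 126689468 and 127208468 (GRCm38), with log2 fold changes between -1.86 and -0.91. This is the check of the genotype labels. Slc17a7 and a cerebellar list separated cortex and cerebellum from the other regions, but a cortical list overlapped with striatum. Slc17a7, the vesicular glutamate transporter of cortical projection neurons, was at 1026 to 1516 CPM (counts scaled to library size) in cortex. In the striatum libraries it was at 2.14 to 866 CPM. A list of 12 cortical genes had a mean log2 level of 5.68 to 6.85 in cortex and of 2.32 to 5.92 in striatum. The W815 striatum, at 5.92, was above the cortex of D804 (5.86) and D812 (5.68). A list of 10 cerebellar genes had a mean log2 level of 6.14 to 8.91 in cerebellum and at most 0.93 elsewhere. Some libraries stood apart by genes of neighbouring tissue. Choroid plexus or hippocampal genes were more than 2 log2 units above the region's median in the striatum libraries of W813, W814 and W816 and in the cortex libraries of D801, D802, W805 and W813, and the cerebellar list was low in the cerebellum libraries of D809 and W813. Ttr, the transthyretin of choroid plexus, reached 4489.6 CPM in the W816 striatum and 6310.5 CPM in the W813 cortex. Results that rest on these libraries are given with and without them where the call differs. Cortical and thalamic genes did not enter this choice. The striatum libraries highest in the cortical and in a thalamic list, W815 and D811 in turn, were thus kept.

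Of the members, only Isl1 had every striatal library above every cortical one. Slc17a7 and the cerebellar list separated their regions, while the cortical list overlapped with striatum, as the other members did with cortex. In bulk tissue, fewer cells of a type and less RNA per cell cannot be told apart.

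The dopamine, adenosine and orphan receptors spanned more than an order of magnitude among striatal libraries and overlapped with cortex. Drd1 (chr13:54051183-54055705) in striatum ran from 14.2 CPM in D810 through a median of 51.2 to 236 CPM in D801 in deletion libraries, and from 5.02 CPM in W813 through 46.1 to 162 CPM in W806 in wild type. In cortex it ran from 25.9 through 57.9 to 113 CPM in deletion and from 9.12 through 36.2 to 95.8 CPM in wild-type libraries. In cerebellum it stayed between 0.0598 and 0.734 CPM over all 16 libraries. The highest and lowest Drd1 values of the forebrain libraries were both striatal, and every forebrain library was above every cerebellar one.

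Drd2 (chr9:49340627-49408177) in striatum ran from 12.6 through 30.2 to 182 CPM in deletion and from 3.37 through 31.4 to 89.3 CPM in wild-type libraries. The cortical values ran from 10.8 through 29.4 to 51.2 CPM in deletion and from 0.29 through 16.3 to 49.1 CPM in wild type. In cerebellum it ran from 0.197 to 10.1 CPM, the top value being D809. The wild-type cortex values fell into a low and a high set, with W807, W808, W813 and W814 at 0.29 to 2.46 CPM and the other 4 at 30.0 to 49.1 CPM.

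Adora2a, which marks the indirect pathway more closely than Drd2, had a wider range than Drd2 in striatum but not in cortex or cerebellum. In striatum it ran from 6.78 through 57.0 to 368 CPM in deletion and from 2.43 through 34.4 to 199 CPM in wild-type libraries. Its cortical range was from 17.3 through 88.4 to 199.9 CPM in deletion and from 1.90 through 43.3 to 109 CPM in wild type. Cerebellum held 1.54 to 3.26 CPM, so the lowest striatal library (W813) lay inside the cerebellar range. Gpr6, an orphan receptor of indirect-pathway neurons, ran from 3.01 to 76.8 CPM in striatum and from 1.42 to 40.9 CPM in cortex, and no cerebellar library passed 0.266 CPM.

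The peptides overlapped between striatum and cortex as the receptors did, and of the 3 Penk differed from them in cerebellum. Penk in striatum ran from 97.1 through 518 to 2042 CPM in deletion and from 93.3 through 339.98 to 1285 CPM in wild-type libraries. Cortical Penk ran from 191 through 506 to 1173 CPM in deletion and from 71.5 through 318 to 626 CPM in wild type. Cerebellar Penk was far from absent, at 130 to 248 CPM in deletion and 95.0 to 193 CPM in wild type, and every cerebellar library was above the lowest library of striatum and that of cortex. Tac1 ran from 26.2 to 238 CPM in striatum and from 13.0 to 205 CPM in cortex, with cerebellum between 0.394 and 27.0 CPM. Its group medians were 123 and 81.3 CPM in deletion and wild-type striatum, 72.7 and 58.8 CPM in cortex, and 6.68 and 2.31 CPM in cerebellum. Pdyn ran from 16.0 to 194 CPM in striatum, from 21.9 to 118 CPM in cortex and from 0 to 7.10 CPM in cerebellum.

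Among the cAMP genes, Ppp1r1b had the smallest fold change between wild-type striatum and cerebellum. In striatum it ran from 65.3 through 321 to 1889 CPM in deletion and from 31.2 through 189.6 to 992 CPM in wild-type libraries. In cortex it ran from 127 through 553 to 1166 CPM in deletion and from 93.4 through 306 to 668 CPM in wild type. In cerebellum it ran from 99.0 through 157 to 224 CPM and from 114 through 168 to 243 CPM. Of the 8 wild-type striatum libraries, W805, W807, W813 and W815 were below every wild-type cerebellum library. Adcy5 ran from 221 through 406 to 1590.0 CPM in deletion striatum and from 133 through 375 to 977 CPM in wild-type striatum. In cortex Adcy5 ran from 211 through 433 to 726 CPM and from 120 through 299 to 597 CPM, and cerebellum reached at most 116 CPM. Adcy5 was thus above cerebellum in every forebrain library, though its forebrain groups overlapped.

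Isl1 (chr13:116298281-116309689), a LIM-homeodomain factor of direct-pathway neurons that also marks cholinergic interneurons, was the exception. Its striatal values ran from 14.2 through 19.4 to 28.0 CPM in deletion and from 9.80 through 15.5 to 25.6 CPM in wild-type libraries. Its cortical values ran from 0.975 through 3.19 to 5.91 CPM in deletion and from 0 through 2.39 to 8.24 CPM in wild type. In cerebellum it was at most 0.974 CPM, with 7 of 16 libraries at 0 counts, which allows up to 3 counts each. Isl1 was the only member whose 16 striatal libraries all lay above all 16 cortical ones, a pattern held by 0.34% of the 18531 genes compared. Chat, the acetylcholine-synthesising enzyme of cholinergic interneurons, ran from 0.227 to 31.2 CPM in striatum and from 0.269 to 13.9 CPM in cortex. Its part in the Isl1 values was not tested.

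**Figure D1:**
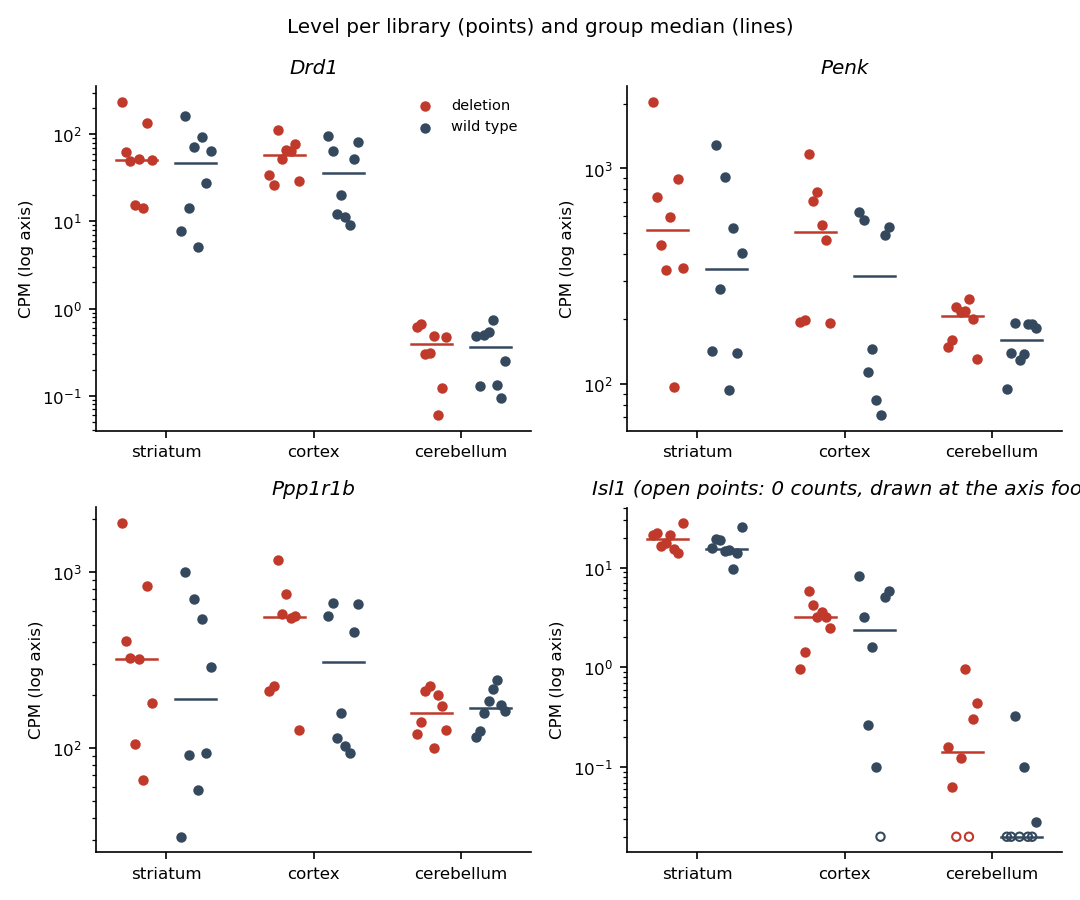
Level of Drd1, Penk, Ppp1r1b and Isl1 in CPM (log axis) in each library (points), by region and genotype, with group medians as lines (8 libraries per group). Drd1, Penk and Ppp1r1b overlapped between striatum and cortex, whereas all Isl1 values in striatum, from 9.80 CPM up, were above the highest cortical value of 8.24 CPM.

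The zinc-finger factor Bcl11b (CTIP2) is known in deep-layer cortical neurons as well as in medium spiny neurons. It ran from 21.8 through 50.2 to 166 CPM in deletion striatum and from 13.8 through 57.2 to 132 CPM in wild-type striatum. Cortical Bcl11b ran from 49.6 through 78.3 to 108 CPM and from 28.1 through 59.3 to 110 CPM, and in cerebellum from 0.575 to 4.14 CPM. The striatal medians were the lower ones. Meis2, a homeodomain factor, ran from 74.7 through 107 to 280 CPM in deletion and from 11.6 through 146 to 223 CPM in wild-type striatum. In cortex it ran from 62.0 through 111 to 169 CPM and from 51.2 through 105 to 163 CPM, and in cerebellum from 0.224 to 50.8 CPM. Both factors thus overlapped between striatum and cortex, and only Bcl11b was clear of cerebellum in striatum and cortex alike.

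Per kilobase of exon, Penk had the highest median of the members in striatum, 259 CPM per kb, followed by Ppp1r1b at 103 and Gng7 at 96.7 CPM per kb. Drd1 had 14.1 and Drd2 11.9 CPM per kb. On the same per-length scale the ratio of Drd1 to Drd2, the balance of the classes' receptors, was 0.275 in the W805 striatum and between 0.489 and 1.55 in the other 15 striatal libraries. In cortex it was 1.14 to 1.88 in 12 libraries, but 4.25 in W807, 5.79 in W808, 5.70 in W813 and 22.1 in W814. Those 4 are the wild-type libraries with few Drd2 counts, 69, 82, 41 and 9. In cerebellum the ratio was 0.0338 to 0.486, with Drd2 the higher of the pair in every library. Drd1 held only 2 to 22 counts there and Drd2 as few as 6. In the libraries of fewest counts neither the size nor the direction of the ratio is resolved. Drd1 is also known in cortical neurons.

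Libraries of 1 region differed far more in the members than in most genes. Over the 16 striatal libraries the median SD of the members' log2 levels was 1.15, beside 0.36 over all genes above 1 CPM, and 26 of 33 members were above the 90th percentile of all genes, 0.75. In cortex the median SD was 1.01 beside 0.31, with 27 of 33 above the 90th percentile of 0.64. In cerebellum, where 23 members passed 1 CPM, it was 0.56 beside 0.34, with 10 above 0.68. The largest striatal ratio of highest to lowest library was 561-fold for Cd4, whose lowest library had 4 counts, followed by 152-fold for Adora2a. Sh3rf2, with 3 counts in its lowest library, was given no ratio. The smallest was 2.86-fold for Isl1.

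The members moved largely together in the forebrain, and less so in cerebellum. The first principal component of their log2 levels held 85.2% of their variance in striatum and 89.6% in cortex, with all 33 members on 1 side of it. In cerebellum it held 73.2% of the variance of 24 members, but 7 of them had the opposite sign and 10 had under 20% of their own variance in it, among them Penk (0.42%) and Adora2a (6.00%). The striatal component held 97.0% of the variance of Drd1 but 1.12% of that of Isl1, 28.3% of that of Sp9, a zinc-finger factor of indirect-pathway neurons, and 37.3% of that of Kcnip2, a potassium channel subunit. D801 had the highest striatal value for 27 of 33 members and W813 the lowest for 18. In cortex D803 was highest for 26 and W814 lowest for 18, and W807, W813 and W814 were below the cortical median for all 33. These components are descriptions, since the members share libraries.

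**Figure D2:**
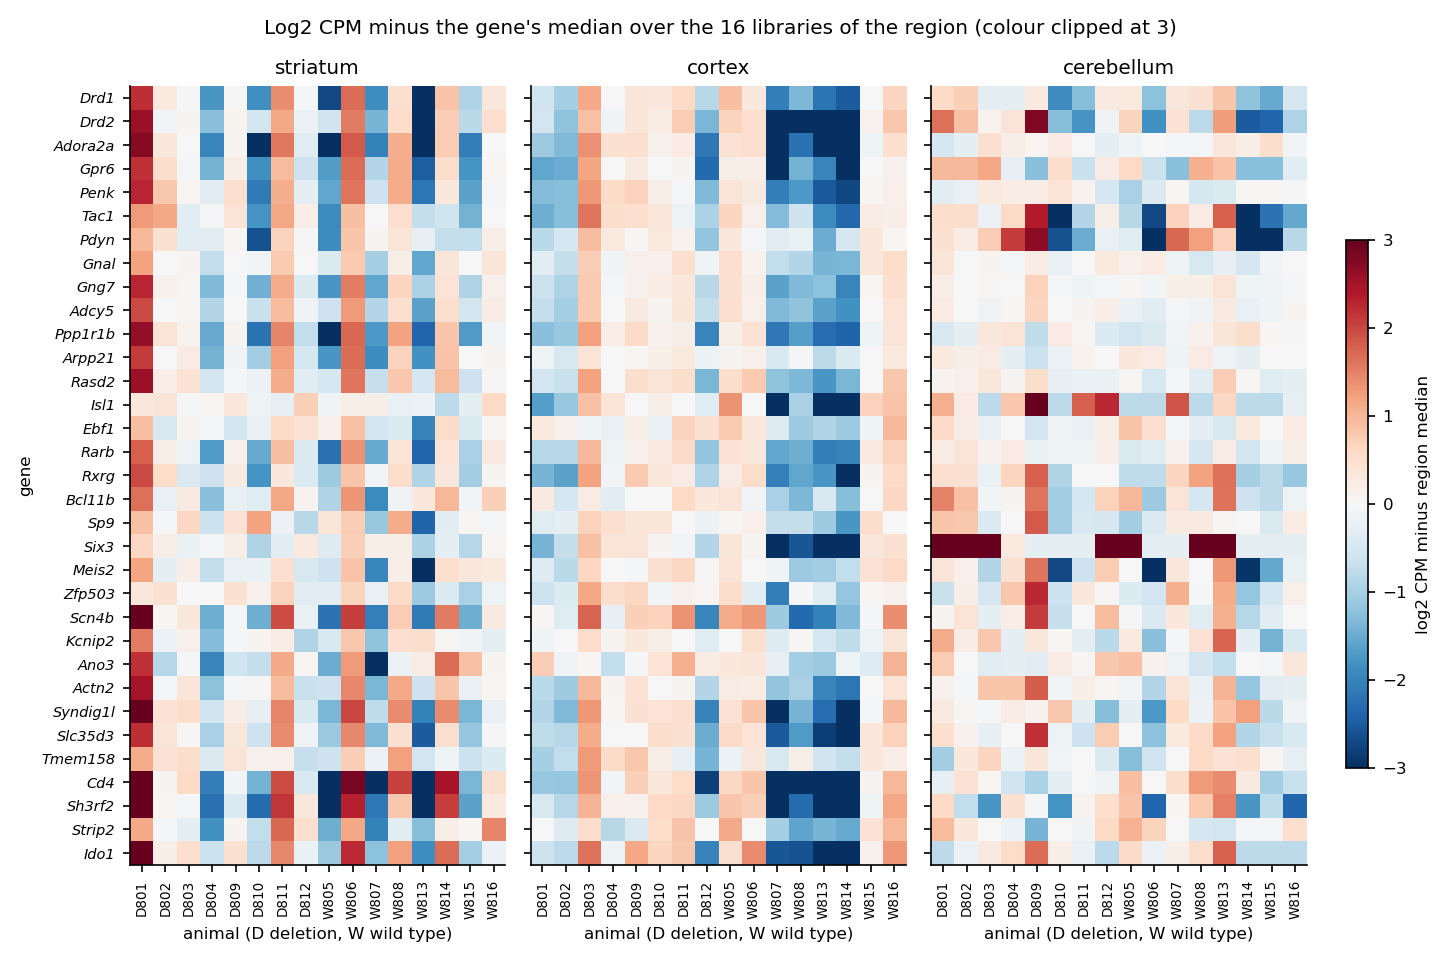
Log2 CPM of each of the 33 genes (rows) in each library (columns, by animal) minus that gene's median over the 16 libraries of its region, with colours clipped at 3. The extreme columns of striatum and cortex are nearly uniform: D801 striatum and D803 cortex are high, W813 striatum and the cortex of W807, W808, W813 and W814 low. Other columns are mixed, such as the D809 striatum and the D804 cortex, with 14 and 15 of 33 genes below the region's median. Isl1 is near its median across the striatum.

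Marker lists of other cell types and tissues did not stay constant beside this. The mean log2 level of 12 thalamic genes ran from 3.50 to 6.25 in striatum and from 2.50 to 4.69 in cortex, and no gene of that list was at 0 in all libraries of a group. It was 3.75 in D801 and 3.50 in W813, the libraries that were highest and lowest for most members. The mean of 12 cortical genes in striatum was 2.77 in D801, 5.40 in W813 and highest, 5.92, in W815. The summed level of 7 oligodendrocyte genes ran from 3842 to 10239.7 CPM in striatum and from 1805 to 8007 CPM in cortex. The summed level of 7 interneuron genes ran from 217 to 609 CPM in striatum and from 274 to 814.02 CPM in cortex. Summed astrocyte, microglial and endothelial genes ran from 1070.4 to 1647, from 262 to 536 and from 155 to 289 CPM in striatum, and from 899 to 1474, from 395 to 558 and from 196 to 290.4 CPM in cortex. The part of these tissues in the members' spread was not tested.

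Comparing striatum with cortex asks whether the members mark the striatal dissection. In wild-type libraries, 3 of 33 members were called higher in striatum (edgeR's quasi-likelihood test, adjusted p under 0.05), beside 9.77% of 17059 genes tested, and none was called lower, beside 8.93%. The count called higher was near the share of all genes, so it is not read as a pattern by role. All 3 were transcription factors: Isl1, Sp9 and Zfp503. None of the 4 receptors, 3 peptides, 6 cAMP genes, 8 membrane genes and 3 others was called in the fit reported. The members' median log2 fold change was 0.39, beside 0.01 over all genes, and 26 of 33 values were above 0, beside 51.1% of all genes. Without the W806 striatum, Drd1 was at -0.11, Adora2a at -0.27, Bcl11b at -0.29 and Meis2 at -0.0071, each above 0 with it. Adcy5, Drd2, Ebf1, Isl1, Penk, Six3, Sp9, Tac1 and Zfp503 stayed above 0. The members vary together among libraries, so these values are not independent of one another.

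Isl1 was 2.46 ± 0.74 higher on the log2 scale (SE, edgeR adjusted p = 0.0288), with means of 16.7 and 3.04 CPM. Sp9 was 1.41 ± 0.42 higher (edgeR adjusted p = 0.0266), with means of 9.89 and 3.56 CPM. Zfp503 (NOLZ1), a factor of striatal progenitors and neurons, was 1.43 ± 0.33 higher (edgeR adjusted p = 0.00734), with means of 8.68 and 3.11 CPM. Six3, a homeobox factor of the indirect pathway, had a log2 value of 2.06 ± 0.72 (edgeR adjusted p = 0.0558), and Ebf1, a factor of the direct pathway, 0.75 ± 0.40. Six3 was called as well by DESeq2, at 2.06 (adjusted p = 0.0332), with the animal as a block, at 2.90 (edgeR adjusted p = 0.0198), and without the cortex library of W805, W814, W815 or W816 (edgeR adjusted p of 0.0391 to 0.0482). The call of Isl1 was lost without the cortex library of W806 or W808 or the striatum library of W816 (edgeR adjusted p of 0.0535, 0.0569 and 0.0583), and that of Sp9 without the cortex library of W807 or W808 or the striatum library of W816 (0.0607, 0.0582 and 0.053). The peptide Pdyn was called higher without the striatum library of W805, at 0.86 (edgeR adjusted p = 0.0301). Counts of members called were thus between 1 and 4 when 1 library was left out.

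The other end of the order held genes with higher means in cortex. Ano3, a member of the anoctamin family, had a log2 value of -0.69 ± 0.50, and Arpp21, a cAMP-regulated phosphoprotein, -0.54 ± 0.45. Scn4b, a sodium channel beta subunit, had -0.40 ± 0.74, Kcnip2 -0.19 ± 0.25 and Cd4 -0.12 ± 1.06. None of the 5 was called. The leading genes of the dopamine pathway had SEs larger than their values, so these were not resolved: Drd1 had 0.36 ± 0.69, Drd2 0.70 ± 0.87, Penk 0.41 ± 0.60 and Ppp1r1b -0.07 ± 0.69.

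Deletion animals gave the same picture with 5 of 33 members called higher, beside 9.06% of 17003 genes, and 0 lower, beside 10.3%. These were Isl1 at 2.63 ± 0.30 (edgeR adjusted p = 3.16e-05), Six3 at 1.60 ± 0.29 (0.00126), Zfp503 at 1.31 ± 0.24 (0.00116), Sp9 at 1.22 ± 0.29 (0.00651) and Ebf1 at 0.74 ± 0.23 (0.0302). The median was 0.36, and 24 of 33 values were above 0, beside 47.1% of all genes. Slc35d3, an orphan nucleotide-sugar transporter, followed at 0.87 ± 0.47 and was not called. The 5 lowest values were those of Ano3 (-0.95 ± 0.50), Arpp21 (-0.47 ± 0.42), Cd4 (-0.37 ± 0.80), Kcnip2 (-0.33 ± 0.30) and Bcl11b (-0.18 ± 0.34). With the animal as a block, Ano3 was called lower in striatum at -1.41 (edgeR adjusted p = 0.00363). Without the D801 striatum, Ano3 (-1.63), Arpp21 (-0.96) and Kcnip2 (-0.67) were called lower (edgeR adjusted p of 0.00415, 0.0405 and 0.0391). There Drd1 was at -0.15, Adora2a at -0.54, Adcy5 at -0.083, Penk at -0.11 and Meis2 at -0.098, each above 0 in the fit reported. Drd2 (0.042), Ebf1, Isl1, Six3, Slc35d3, Sp9, Tac1 and Zfp503 stayed above 0. The members vary together among libraries, so the 24 values above 0 are not independent of one another. The Ebf1 call was lost without the cortex library of D802, D803, D804 or D810, without the striatum library of D811 or D812, and without the libraries with genes of neighbouring tissue (edgeR adjusted p = 0.0615). In 1 fit of all 48 libraries the calls of Six3 and Ebf1 were lost (edgeR adjusted p of 0.195 and 0.0605).

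Within an animal the direction depended on the animal. In 9 of 16 animals most of the 33 members were higher in the striatum than in the cortex, and in 7 the fewer were. The counts ranged from 5 (D803, D804 and W805) to 33 (D801 and W814). Drd1 was higher in the striatum in 8 of 16 animals and Ppp1r1b in 7, with the striatal value of D801 at 236 and the cortical at 34.05 CPM, but 7.83 and 95.8 CPM in W805. Isl1, Six3 and Zfp503 were higher in the striatum in 16 of 16 animals, Sp9 and Ebf1 in 14. Ano3, Arpp21 and Kcnip2 were higher in 4 of 16. A high count can rest on either library: W814 had 33 with the lowest cortical Drd1, and D801 had 33 with the highest striatal Drd1.

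**Figure D3:**
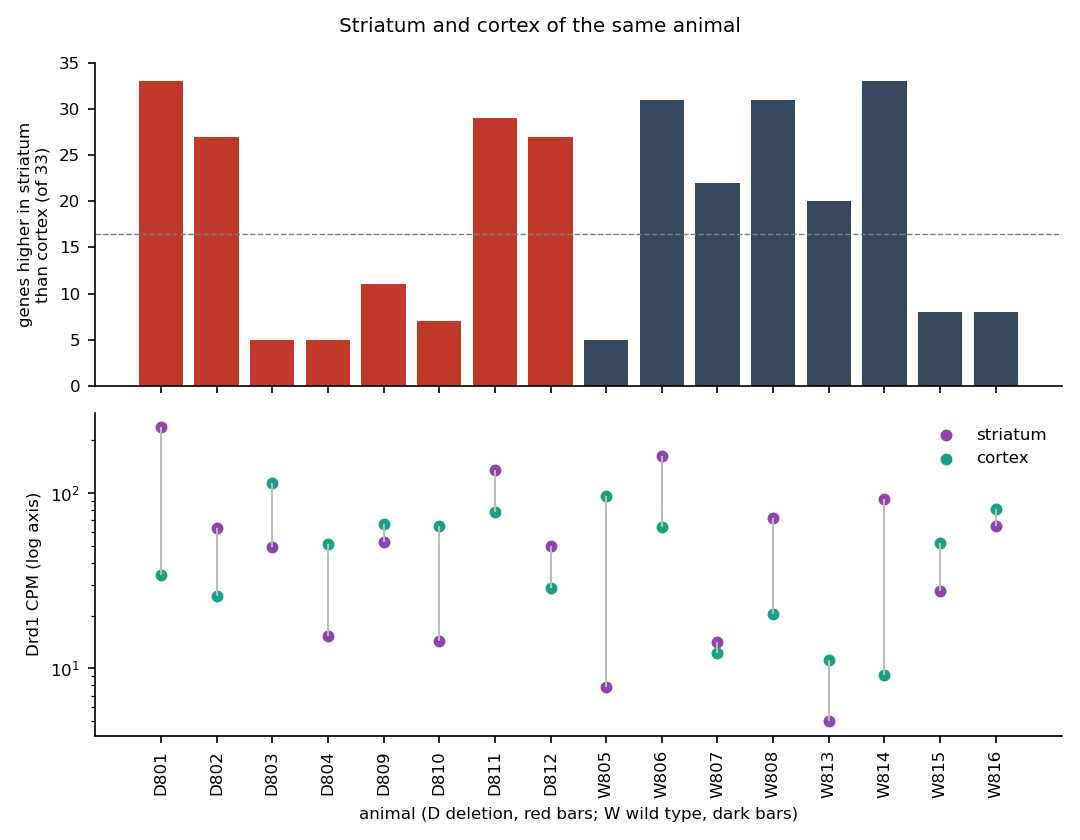
Top, for each animal, the number of the 33 genes with a higher log2 level in striatum than in cortex (bars; the dashed line marks the middle of the range). Bottom, Drd1 in CPM (log axis) in the striatum and cortex libraries of the same animal, joined by a line. Bars range from 5 to 33, and Drd1 was higher in striatum in 8 of 16 animals.

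Against cerebellum, which holds no medium spiny neurons, most members were far higher in striatum. In wild-type libraries 27 of 33 were called higher, beside 23.1% of 17012 genes tested, and 1 lower, beside 20.7%. In deletion libraries 29 were called higher, beside 21.5%, and 1 lower, beside 21.0%. The wild-type median was 3.77 on the log2 scale, beside -0.005 over all genes. All 4 receptors and all 3 peptides were called higher, as were 5 of 6 cAMP genes, 8 of 9 transcription factors, 5 of 8 membrane genes and 2 of 3 others. These counts include Gpr6, Isl1, Sp9, Six3, Cd4, Sh3rf2 and Ido1, which did not pass the filter on low counts within cerebellum. Those genes entered through their striatal counts in both genotypes, so the filter had set the direction of their calls. In 15 of 33 members every striatal library was above every cerebellar library, a pattern held by 4.61% of genes.

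By the fitted value the 5 largest in wild type were Isl1 at 8.13 ± 0.66, Gpr6 at 7.75 ± 0.82, Drd1 at 7.29 ± 0.82, Sp9 at 7.29 ± 0.54 and Pdyn at 6.46 ± 0.76 (edgeR adjusted p of 5.99e-08 to 5.40e-06). Isl1, Gpr6 and Sp9 did not pass the filter on low counts within cerebellum and were tested through their striatal counts: over the 8 wild-type cerebellar libraries they held 15, 22 and 15 counts in all, with 5, 3 and 1 libraries at 0. Their fitted values move with the fit's prior count, so their order and exact sizes are not resolved. In deletion libraries, with the same limit for Gpr6, Cd4, Sp9 and Isl1, the 5 largest were Drd1 at 7.68 ± 0.69, Gpr6 at 7.49 ± 0.67, Cd4 at 6.93 ± 0.92, Sp9 at 6.77 ± 0.58 and Isl1 at 6.39 ± 0.58. Drd2 stood at 4.83 ± 0.74 in wild type and 4.12 ± 0.73 in deletion, and Adora2a at 4.61 ± 0.83 and 5.37 ± 0.71.

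The exceptions were genes with cerebellar levels near or above the striatal ones. Ebf1 was lower in striatum by 2.73 ± 0.32 on the log2 scale in wild type, with means of 4.90 and 32.98 CPM (edgeR adjusted p = 5.44e-06), and its deletion value was -2.37 ± 0.23. Strip2, a striatin-interacting protein, had -0.90 ± 0.46 (edgeR adjusted p = 0.131). Scn4b had 0.68 ± 0.61, Ppp1r1b 0.99 ± 0.60, Syndig1l 1.08 ± 0.61 and Ano3 1.16 ± 0.50, none of them called in wild type. In deletion libraries Ppp1r1b (1.61 ± 0.54, edgeR adjusted p = 0.0247) and Syndig1l (1.73 ± 0.52, 0.0125) were called, and Ano3 (1.07 ± 0.49), Scn4b (0.88 ± 0.72) and Strip2 (-0.60 ± 0.43) were not. Gnal, among the 5 smallest there, was called at 1.29 ± 0.23. With the animal as a block, Penk and Rarb were lost in wild type (edgeR adjusted p of 0.0673 and 0.0592), Strip2 was called lower at -1.19 (0.0301), and Ppp1r1b was lost in deletion (0.197).

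**Figure D4:**
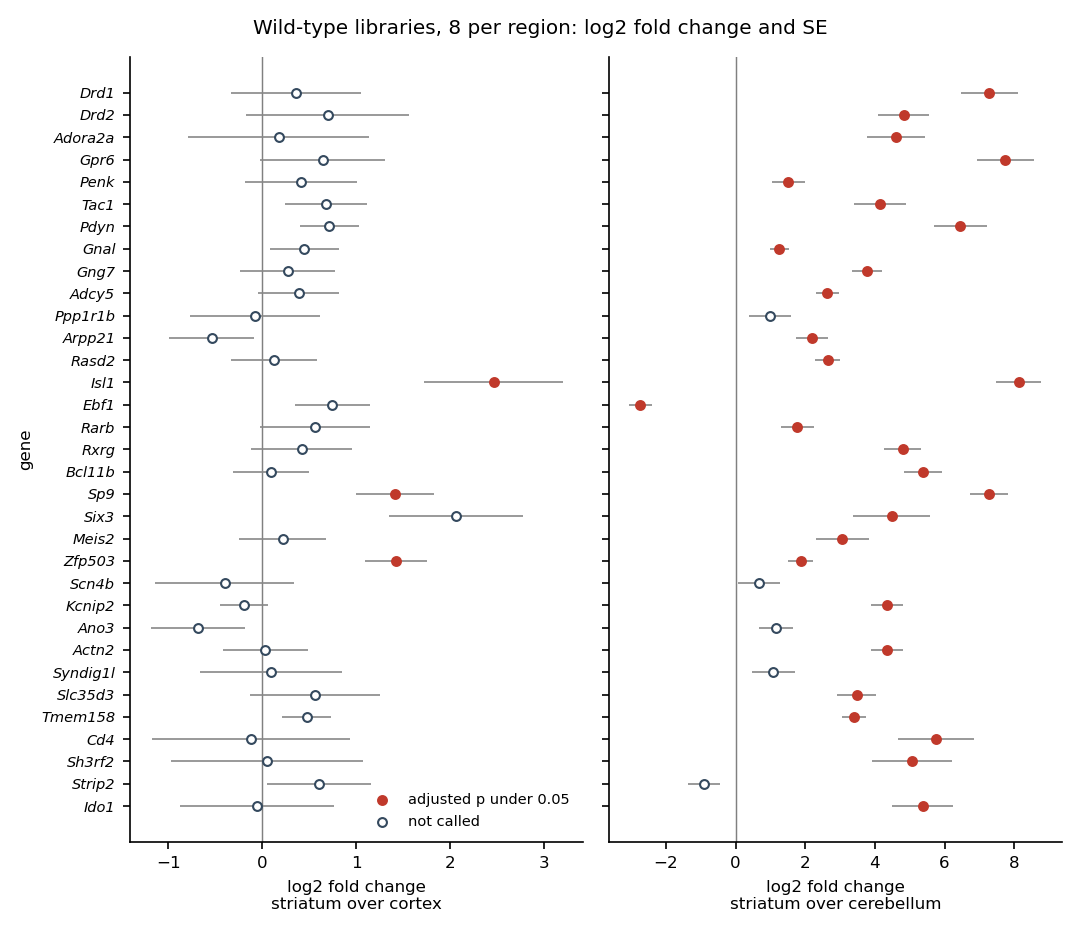
Log2 fold change of each gene in wild-type striatum over cortex (left) and over cerebellum (right), with SE bars, from 8 libraries per region. Filled points passed an adjusted p of 0.05: 3 of 33 against cortex, and 28 of 33 against cerebellum, of which Ebf1 was lower.

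Cortex against cerebellum gave nearly the same count as striatum did. Of 31 members tested in wild-type libraries, 23 were called higher in cortex, beside 25.7% of 16863 genes, and 2 lower, Ebf1 at -3.48 ± 0.34 and Strip2 at -1.51 ± 0.43, beside 25.1%. The 5 largest values were Gpr6 at 7.05 ± 0.84, Drd1 at 6.92 ± 0.68, Sp9 at 5.86 ± 0.44, Cd4 at 5.86 ± 0.97 and Pdyn at 5.73 ± 0.69. The order of Gpr6, Sp9 and Cd4 is limited by their few cerebellar counts as above. They and Sh3rf2, all among those called, entered through their cortical counts, so the filter had set their direction. Besides Ebf1 and Strip2, the smallest were Zfp503 at 0.45 ± 0.39, Gnal at 0.81 ± 0.29 and Syndig1l at 0.99 ± 0.66. Isl1 and Ido1 did not pass the filter on low counts there. In 14 of 33 members every cortical library was above every cerebellar one, beside 7.39% of genes. With the animal as a block Rarb was lost (edgeR adjusted p = 0.0757) and Six3 was called at 3.71 (0.0426). Without the libraries with genes of neighbouring tissue Gnal was lost (edgeR adjusted p = 0.0523) and Six3 was called at 4.25 (0.0415). Six3 did not pass the filter within cerebellum either and entered through its cortical counts, so the filter had set its direction. Its 8 wild-type cerebellar libraries held 317 counts, with 5 libraries at 0. Of these counts 206 were in W813, 1 of the libraries left out. These regional comparisons share libraries, so their values are given side by side only.

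Within cerebellum the members' high values were mostly those of D809 and W813, the libraries in which the cerebellar list was low. D809 had the highest cerebellar value for 13 members and W813 for 8. D809 also had the lowest for 6, ties at 0 included, among them Ppp1r1b, Arpp21, Ebf1 and Strip2, and W813 for 1. Drd2 was at 10.1 CPM in D809 and 3.44 CPM in W813, and Isl1 at 0.974 CPM in D809.

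Between genotypes no member was called. In striatum 0 of 33 passed, beside 0.128% of 17198 genes tested, in cortex 0 of 33, beside 0.13% of 16877, and in cerebellum 0 of 26, beside 0.138% of 16672. At an unadjusted p under 0.05 there were 0 members in each region by edgeR. DESeq2 called 0 as well. All 33 values were above 0 in striatum and in cortex, beside 48.2% and 50.9% of all genes, with medians of 0.33 and 0.36 on the log2 scale. In striatum this rested on D801: without that library 12 of 33 values were above 0 and the median was -0.081, while the other 15 libraries, left out in turn, gave 28 to 33 above 0 and medians of 0.16 to 0.60. In cortex 29 were above 0 without D803, with a median of 0.14, and leaving out any other library gave 31 to 33. In cerebellum 19 of 26 were above 0, with a median of 0.20, beside 48.5%, and the median was 0.039 without D809. Because the members vary together among libraries, these values are not independent of one another.

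In striatum Drd1 had means of 76.9 ± 74.3 CPM in deletion and 55.7 ± 54.1 CPM in wild type (SD, n = 8 each), a log2 difference of 0.45 ± 0.70. Drd2 differed by 0.50 ± 0.60, Penk by 0.58 ± 0.55 and Ppp1r1b by 0.55 ± 0.74. Without D801 the deletion mean of Drd1 was 54.2 ± 40.4 CPM (SD, n = 7), and the log2 differences were -0.049 ± 0.70 for Drd1, -0.14 ± 0.55 for Drd2, -0.041 ± 0.75 for Ppp1r1b and 0.23 ± 0.56 for Penk, so that 3 of these 4 turned in direction. The smallest p-values belonged to Zfp503 at 0.42 ± 0.23 (edgeR unadjusted p = 0.0894), Tac1 at 0.70 ± 0.41 (0.11) and Slc35d3 at 0.74 ± 0.54 (0.192), each with an edgeR adjusted p of 0.99996. The SEs of the dopamine pathway genes were as large as the differences, so differences of this size were not detectable with this spread. With the thalamic list's mean as a covariate, Drd1 was at 0.52 and Ppp1r1b at 0.64, and 0 members were called.

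In cortex Drd1 had means of 57.7 ± 29.4 CPM in deletion and 43.1 ± 34.5 CPM in wild type (SD, n = 8 each), a log2 difference of 0.42 ± 0.51. Drd2 differed by 0.46 ± 0.80, Penk by 0.69 ± 0.54 and Ppp1r1b by 0.56 ± 0.54. The smallest p-values were those of Sp9 at 0.46 ± 0.29 (edgeR unadjusted p = 0.129), Zfp503 at 0.52 ± 0.34 (0.144) and Penk (0.224). The 4 cortex libraries with the least Drd1 were wild type, W807, W808, W813 and W814, while the other wild-type libraries lay inside the deletion range.

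In cerebellum Drd1 differed by 0.05 ± 0.47, Drd2 by 1.19 ± 0.71, Penk by 0.30 ± 0.16 and Ppp1r1b by -0.09 ± 0.19. The smallest p-values were those of Adcy5 at 0.21 ± 0.10 (edgeR unadjusted p = 0.0521), Actn2, a muscle-type alpha-actinin found at spines, at 0.65 ± 0.35 (0.0808) and Penk (0.081). The Drd2 means, 2.84 ± 3.22 CPM in deletion and 1.23 ± 1.17 CPM in wild type (SD, n = 8 each), rest in part on D809, without which the log2 difference was 0.28 ± 0.64. A difference of the genotype effect between striatum and cortex was called for 0 of 33 members, beside 0.0% of 17972 genes, and between striatum and cerebellum for 0 of 33, beside 0.0% of 18077. Drd1 gave 0.01 ± 0.89 and 0.38 ± 0.97 in these. At an unadjusted p under 0.05 there were 0 members in the first and 1 in the second, Isl1 at -1.81 ± 0.86, and DESeq2 called 0 members in both. Isl1 did not pass the filter on low counts within cerebellum, where its 8 wild-type libraries held 15 counts in all and its 8 deletion libraries 65, of which 28 were in D809, so that value rests on counts near 0.

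**Figure D5:**
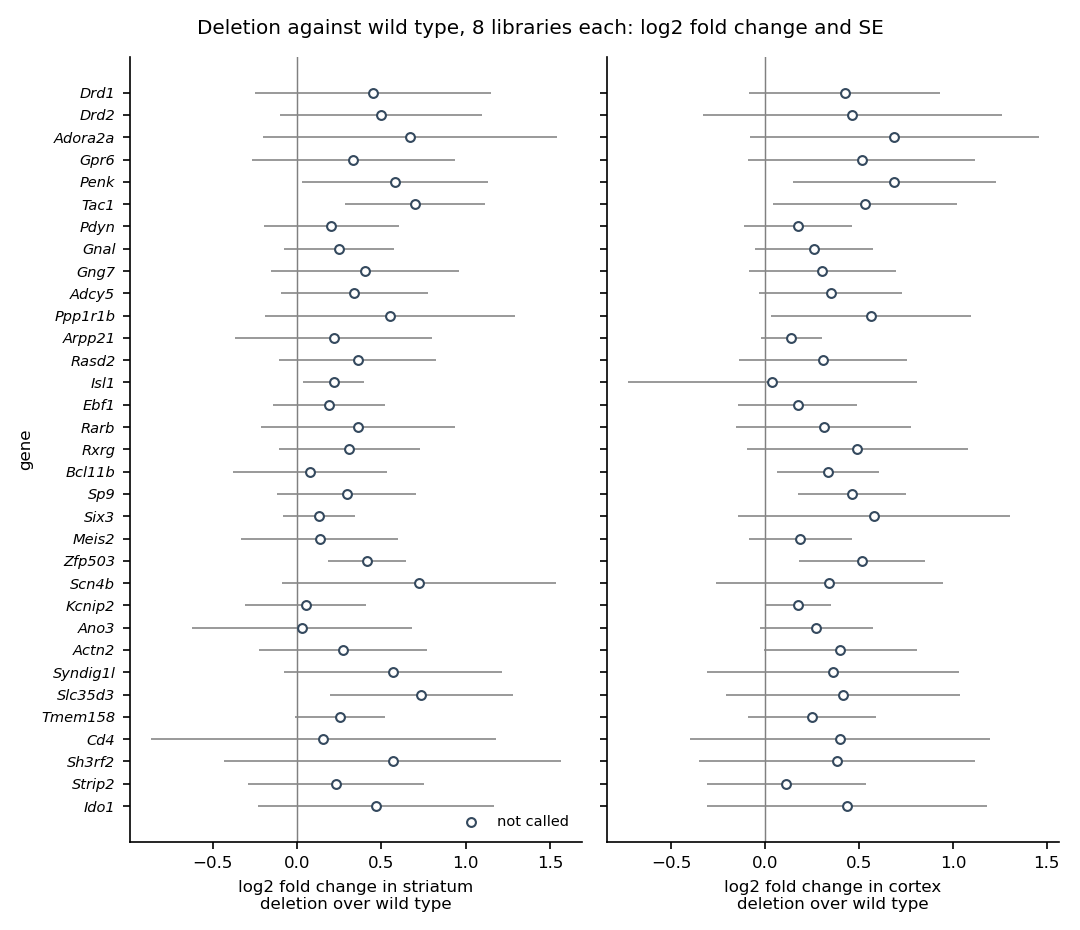
Log2 fold change of each gene in deletion over wild-type libraries of striatum (left) and cortex (right), with SE bars, from 8 libraries per genotype. All points lie right of 0 in both regions and none was called. In striatum 12 of 33 did so without D801.

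A list of 34 other striatal signalling and GABAergic genes was read beside the members. In wild-type striatum over cortex 4 of 33 tested were called higher, beside 9.77% of all genes, and 4 lower, beside 8.93%, with a median of 0.22. Both counts were near the shares of all genes. The higher ones were the GABA genes Gad2 at 1.502 ± 0.35 and Slc32a1 at 1.13 ± 0.21, and the homeobox genes Dlx6 at 0.94 ± 0.28 and Dlx5 at 0.94 ± 0.29. The lower ones were Itpka at -1.27 ± 0.41, Camk4 at -0.99 ± 0.33, Ppp1r1a at -0.93 ± 0.29 and Prkar1b at -0.49 ± 0.14. Their edgeR adjusted p-values ran from 0.00221 to 0.0452. The 2 largest values of the list, Oprm1 at 2.16 and Drd3 at 2.09, were not called (edgeR adjusted p of 0.0772 and 0.164), nor was Drd5 at 1.01 (0.0515).

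In deletion libraries 9 of 33 of that list were called higher, beside 9.06% of all genes, and 3 lower, beside 10.3%. Drd3 at 2.49, Gad2 at 1.31, Slc32a1 at 1.11 and Foxp2 at 1.002 were among the higher ones, and Oprm1 at 1.28 was not called. Over cerebellum 24 of 32 were called higher and 2 lower in wild type, beside 23.1% and 20.7% of all genes. In deletion libraries 26 and 2 were, beside 21.5% and 21.0%. Among the largest values were Dlx6 at 9.40 and 10.60, Dlx5 at 8.94 and 9.40, Rgs9 at 5.44 and 5.48, and Chrm4 at 4.39 and 4.68, in wild type and deletion in turn. In wild-type cortex over cerebellum 22 of 33 were called higher and 4 lower, beside 25.7% and 25.1% of all genes. Dlx6 was at 8.37, Dlx5 at 7.93, Rgs9 at 5.0 and Chrm4 at 4.70. Within cerebellum 31 genes of the list passed the filter on low counts, fewer than the 32 and 33 tested against it. For a gene that entered only through its striatal or cortical counts, the filter had set the direction. Where cerebellar counts are few, fitted values move with the fit's prior count, so the exact sizes of the largest values are not resolved. Between genotypes none was called in any region, beside 0.128% of all genes in striatum, 0.13% in cortex and 0.138% in cerebellum. Of the genes that GABAergic neurons in general carry, Gad2 and Slc32a1 were thus called higher in striatum than in cortex in both genotypes, and Gad1, at 0.55 ± 0.20 in wild type (edgeR adjusted p = 0.0644) and 0.57 ± 0.10 in deletion libraries (0.000657), passed the test in deletion libraries. The difference of the Gad1 values between genotypes was 0.03 ± 0.22 (edgeR adjusted p = 0.9992).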

How the data were processed

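Striatum, cortex and cerebellum RNA of 16 mice went into TruSeq stranded mRNA libraries, according to the labels. The values deposited by the authors are raw read counts, 1 row per gene and 1 column per library. The submitters' processing notes name STAR 2.4.2a as a tool besides FastQC 0.10.1, SAMtools and Picard, and GRCm38 and mm8 as builds, with no role for either build. How reads were counted, with which annotation and whether by strand is not given in the sources used here, so counts of genes that overlap another (Rarb with Top2b, Six3 with Six3os1, Sp9 with Cir1, Gnal with Mppe1, Arpp21 with 2900079G21Rik) are uncertain. Symbols, coordinates and exon lengths came from GENCODE vM21 on GRCm38, which matched 46574 of 47069 gene identifiers. The 92 ERCC spike-in rows, 0.0614 to 1.09% of counts, were left out.

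Each comparison was fitted by edgeR 4.0.16 (R 4.3.3) with TMM scaling, its filter on low counts, robust quasi-likelihood dispersions and sex as a covariate, on the libraries compared. P-values were 2-sided and Benjamini-Hochberg adjusted over all genes tested, with calls made at an adjusted p under 0.05. The SE is the absolute log2 fold change over the square root of the F statistic. CPM values use TMM-scaled library sizes, and log2 CPM a prior count of 2. As the reads carry no molecular identifiers, PCR copies are counted too, and the floor of 3 counts covers counting error only. The same animal number marks the same animal in each region: deviations from group means correlated with a median r of 0.37 between striatum and cortex of 1 animal and -0.07 between animals (0.24 and -0.04 for striatum and cerebellum, 0.43 and -0.0048 for cortex and cerebellum). The block fit is given where it changed a call. Alternatives were DESeq2 1.42.0, upper-quartile scaling, no filter, 1 fit of all 48 libraries, each sex alone, the animal as a block and the thalamic covariate, and, chosen after seeing the data, leaving out the libraries with genes of neighbouring tissue and leaving out each library in turn.

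The members and the gene lists were chosen with earlier results of these data known. All 33 members found are accounted for by role. Values by group were given for 10 of them, and for each regional comparison the 5 largest and 5 smallest, for each genotype comparison the 3 smallest p-values and Drd1, Drd2, Penk and Ppp1r1b, and the 5 largest of the other striatal genes, of which 1 is not reported here.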

Additional observations from a re-analysis of the deposited data

How the results depend on the processing

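Striatum against cortex was the comparison that moved. Of the wild-type members called higher, 3 in the fit reported, females alone gave 0, with no gene called among all tested, and males alone 1, with 4 libraries per region in each. Of the 5 in deletion libraries, 1 fit of all 48 libraries gave 3, females alone 3 and males alone 1. Leaving out each library in turn gave 1 to 4 in wild type and 4 to 5 in deletion, and 0 members called between genotypes in each region. Of the members named by value, it changed the sign of 7 of 19 in wild-type and 6 of 18 in deletion striatum over cortex, and between genotypes of 3 of 7 in striatum, 0 of 6 in cortex and 2 of 6 in cerebellum. The edgeR adjusted p of Isl1 ran from 0.00281 to 0.345 in wild type and from 1.40e-05 to 0.0287 in deletion over 24 edgeR settings. With the replicate block, members called higher numbered 4 and 5 against cortex and 25 and 28 against cerebellum, in wild type and deletion in turn, and 25 were called either way in cortex against cerebellum. Of all genes the block called 16.6% and 12.5% higher against cortex, 24.4% and 22.7% against cerebellum, and 62.1% either way in cortex against cerebellum. No block was possible between genotypes in 1 region, since each animal has 1 genotype. The other counts of members moved by less than 1.5 times under every setting run. Over all genes, the number called in either direction moved more. Wild-type striatum against cortex went from 3191 to 1728 in males and 5518 with the replicate block, and deletion striatum against cortex from 3299 to 745 in females and 707 in males. Striatum against cerebellum went from 7450 to 4876 in wild-type males and from 7207 to 4499 in deletion females, and wild-type cortex against cerebellum from 8573 to 5501 in females. Between genotypes, striatum went from 22 to 36 in 1 fit of all 48 libraries, 49 by DESeq2, 1 in females, 4 in males and 13 without the libraries with genes of neighbouring tissue. Cortex went from 22 to 34 by DESeq2, 6 in females, 2 in males and 13 without those libraries, and cerebellum from 23 to 1 in each sex alone. For the difference of the genotype effect between striatum and cerebellum DESeq2 called 1 gene where edgeR called 0.

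Log2 values that changed sign, none of them called in either fit, were these. Wild-type striatum over cortex gave -0.13 for Adora2a and -0.00366 for Penk in females, -0.025 for Bcl11b, 0.15 for Cd4 and 0.27 for Ppp1r1b in males, and -0.00213 for Bcl11b and -0.068 for Meis2 with the replicate block. Deletion striatum over cortex gave -0.15 for Adora2a, -0.17 for Meis2 and -0.043 for Penk in females, 0.065 for Bcl11b, 0.44 for Cd4 and 0.32 for Ppp1r1b in males, -0.32 for Adora2a and -0.00933 for Drd1 with the replicate block, and -0.20 for Adora2a, -0.078 for Meis2 and -0.065 for Penk without the libraries with genes of neighbouring tissue. Striatum over cerebellum gave -0.10 for Scn4b in wild type with the replicate block and -0.13 in deletion females. Deletion over wild type gave -0.052 for Zfp503 in male striatum, and for Ppp1r1b in cerebellum 0.25 in males and 0.0497 without those libraries. The cause was not tested. Drd1 had at least 155 counts in every striatum library, while Cd4 had 4 and Sh3rf2 3 in their lowest striatal library, and Drd2 had 9 and Isl1 0 in the W814 cortex, where depth limits the values.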
